A study of Rattus norvegicus with 14 samples.

Results

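Phase I drug metabolizing enzymes were followed in rat livers with fatty change induced by orotic acid. The members were all probe sets whose platform gene symbol begins with Cyp, Fmo, Ces, Adh, Aldh or Aox and a digit, or is Por or Cyb5a. Of 100 probe sets that met this rule, 15 probe sets of 9 genes were set aside beforehand (Cyp51, Cyp7a1, Cyp2a1, Cyp2a2, Cyp2c12, Cyp3a18, Ces2e, Fmo1 and Aldh1a1). Ces2e, Fmo1 and Aldh1a1 were already known from these data to differ strongly between the strains, so the counts of differing members given here are lowered by that choice. The 85 probe sets left, of 4502 in all, held 72 probe sets with 1 gene symbol, which stood for 45 genes, and 13 annotated to several genes. Fmo and Aox had 0 members.

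Phase I enzymes put a polar group on a drug, steroid, fatty acid or other lipophilic molecule, or uncover one. Cytochromes P450 (Cyp genes) sit in the endoplasmic reticulum or mitochondria of hepatocytes and insert oxygen. Those of the endoplasmic reticulum take electrons from a reductase (Por) and, for some substrates, cytochrome b5 (Cyb5a). Carboxylesterases (Ces) split esters, alcohol dehydrogenases (Adh) make aldehydes from alcohols, and aldehyde dehydrogenases (Aldh) oxidise those to acids. In rat liver many of the P450s are set by xenobiotic sensors, by fatty acids or by the sex-specific pattern of growth hormone.

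The 14 arrays measured total RNA of the left lateral liver lobe of rats from 1 supplier, 1 sample to an array. Rats of the Wistar strain were given plain chow (3 control arrays) or chow with 1% orotic acid for 3 days (2 arrays) or 14 days (3 arrays). Rats of a strain that the labels call Kyoto were given the orotic acid chow for 1, 3 or 14 days (2 arrays each). No unfed Kyoto rats and no Wistar rats at day 1 were analysed here, so a strain difference in fed rats cannot be told apart from one that was there without orotic acid. Sex and age are not given in the labels. That every array came from its own rat is nowhere spelled out in the labels, so the p-values measure the spread between these samples, which may be partly technical.

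Values are log2 signals after quantile scaling, with a floor at 6.85 (a signal of 115), below which levels have no order. Probe sets with the same 1 gene symbol entered the fit through the brightest of them, while those annotated to several genes entered singly, and the upper 60% of all features by mean signal were tested. By this filter 50 members were tested among 1909 features, 37 with 1 gene symbol and 13 with several. The 50 are therefore not 50 separate genes: Cyp2c7 and Cyp2b2, for example, also enter through shared probe sets. Another 26 member probe sets gave way to a brighter probe set of their gene, 7 were under the filter, and 2 lacked a value on at least 1 array (Cyp17a1 and 1 of the Cyp2b3 probe sets). Each probe set has its own brightness, so levels were compared between arrays and not between genes. All p-values come from limma, adjusted by Benjamini-Hochberg over the 1909 features, and a member was called at an adjusted p under 0.05.

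The tissue label was borne out by the array: all 8 hepatocyte markers present were above the floor on all 14 arrays, while none of the bile duct markers was tested, and 2 of the 3 present were at the floor on every array. Some arrays stood apart. The array labelled Wistar control 2 was nearest to a Kyoto day 3 array (Pearson r = 0.961 over the 1909 tested features) and not to another control. The least like the rest was Kyoto day 1 replicate 1 (median r = 0.895 with the other arrays). Lot batch 1 was given for 11 arrays. The 3 with no lot given were Wistar control 3, Wistar day 3 replicate 2 and Wistar day 14 replicate 3. Blank entries for 374 or 375 probe sets were on 3 arrays: Wistar control 3, Wistar day 14 replicate 3 and Kyoto day 1 replicate 1. The 2 Wistar arrays with blank entries were nearest to each other (r = 0.970).

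The 5 Cyp2d genes on the array follow each other in the RefSeq gene table in the order Cyp2d4, Cyp2d5, Cyp2d1, Cyp2d3, Cyp2d2, with no other protein-coding gene between them. Their upstream sequences are shown for how alike the genes are whose signals are described below. Whether upstream sequence has a part in any difference was not tested. The windows are the 250 bases before the annotated start, from RefSeq on GRCr8, all on the minus strand: chr7:115793431-115793680 for Cyp2d1, chr7:115784488-115784737 for Cyp2d5, chr7:115802143-115802392 for Cyp2d3 and chr7:115819282-115819531 for Cyp2d2. Capitals mark matches to a direct repeat of AGGNCA with 1 A between the copies, the type of letters bound by some nuclear receptors of hepatocytes, and to the TATA letters TATAA, each searched on both strands (TTATAA holds an overlapping match on each strand).
Cyp2d1: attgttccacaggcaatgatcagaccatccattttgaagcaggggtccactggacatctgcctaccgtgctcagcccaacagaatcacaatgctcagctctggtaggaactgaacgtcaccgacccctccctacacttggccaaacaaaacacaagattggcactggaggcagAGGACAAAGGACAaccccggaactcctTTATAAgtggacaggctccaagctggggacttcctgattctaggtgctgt
Cyp2d5: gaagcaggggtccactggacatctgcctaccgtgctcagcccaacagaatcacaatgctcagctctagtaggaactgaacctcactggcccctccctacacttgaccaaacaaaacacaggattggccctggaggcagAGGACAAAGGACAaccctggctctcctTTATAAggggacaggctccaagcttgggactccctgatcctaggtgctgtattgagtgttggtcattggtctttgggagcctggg
Cyp2d3: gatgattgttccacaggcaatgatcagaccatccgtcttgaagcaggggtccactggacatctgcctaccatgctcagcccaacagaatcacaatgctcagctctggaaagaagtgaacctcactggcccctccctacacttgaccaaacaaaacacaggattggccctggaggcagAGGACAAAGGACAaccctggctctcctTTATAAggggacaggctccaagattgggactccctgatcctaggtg
Cyp2d2: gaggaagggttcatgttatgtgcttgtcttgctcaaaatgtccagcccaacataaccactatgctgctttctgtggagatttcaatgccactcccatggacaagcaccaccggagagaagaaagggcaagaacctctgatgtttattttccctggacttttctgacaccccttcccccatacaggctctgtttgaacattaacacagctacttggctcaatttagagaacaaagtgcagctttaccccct

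Slid along each other without gaps, the Cyp2d5 and Cyp2d3 windows were 97.2% identical over 211 bases, Cyp2d1 and Cyp2d5 93.5% over 215 bases, and Cyp2d1 and Cyp2d3 91.9% over 246 bases. Each of the 3 matched the Cyp2d2 window at 34.4% to 35.9% of positions and the Cyp2d4 window at 28.8% to 31.1%. Counted back from the start, the direct repeat lay at -77 to -65 in Cyp2d1, at -112 to -100 in Cyp2d5 and at -73 to -61 in Cyp2d3. No match of either motif was in the Cyp2d2 and Cyp2d4 windows. Among 33469 promoter windows of the same length in the RefSeq table, 27 (0.0807%) held the direct repeat and 24.0% held TATAA. A match describes letters and is not evidence of a bound factor.

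The Cyp2b1 and Cyp2b2 windows are shown because 4 of the tested Cyp2b probe sets were annotated to more than 1 Cyp2b gene, and the near identity of the genes extends to their upstream sequence. Both lie on the plus strand of GRCr8, at chr1:90645869-90646118 for Cyp2b1 and chr1:90722031-90722280 for Cyp2b2. Capitals mark the 8 positions, of 233 aligned, at which the windows differ (96.6% identity).
Cyp2b1: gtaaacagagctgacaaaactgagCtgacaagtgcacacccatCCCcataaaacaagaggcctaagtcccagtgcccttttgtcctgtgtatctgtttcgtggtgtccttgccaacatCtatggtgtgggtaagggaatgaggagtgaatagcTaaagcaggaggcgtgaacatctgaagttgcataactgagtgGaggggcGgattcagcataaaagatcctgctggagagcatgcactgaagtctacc
Cyp2b2: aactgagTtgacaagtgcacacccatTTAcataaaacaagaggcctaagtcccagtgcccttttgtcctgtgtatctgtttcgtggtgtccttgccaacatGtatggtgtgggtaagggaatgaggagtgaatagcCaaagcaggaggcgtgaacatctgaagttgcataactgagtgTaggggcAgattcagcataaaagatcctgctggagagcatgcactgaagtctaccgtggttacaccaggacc

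The Cyp2b2 window matched that of Cyp2b3 at 48.2% of positions and that of Cyp2b15 at 39.9%.

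Between the strains, taken as the average of the difference at day 3 and that at day 14 in orotic acid-fed rats, 1 of the 50 tested members was called higher in Kyoto and 1 lower. Of all 1909 features 1.26% were called higher and 1.99% lower. The median difference of the members was -0.00 and that of all features 0.04, and 25 of 50 members were higher in Kyoto. At an unadjusted p under 0.05 there were 14 members, and 14.4% of all features. By the 2-fold criterion without overlap, described below, the same 2 members stood out, 1 higher (1.31% of all features) and 1 lower (1.62%).

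Within the strains no member was called in any of the 6 comparisons of days or of feeding, nor in the test of whether the change from day 3 to day 14 differed between strains. Among all features these comparisons called 0, except day 14 against day 1 in Kyoto, which called 0.0524% higher. The members at an unadjusted p under 0.05 numbered 7 at Wistar day 3 against controls (10.5% of all features), 3 at Wistar day 14 against controls (5.19%) and 3 at Wistar day 14 against day 3 (4.45%). In Kyoto they numbered 2 at day 3 against day 1 (5.87%), 10 at day 14 against day 1 (10.2%) and 1 at day 14 against day 3 (4.61%). The test of the strain by time difference had 2 (5.19%).

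Counted instead by group means at least 2-fold apart with no overlap between groups, which is a description and no test, 3 members were higher at Wistar day 3 than in controls, where 2.04% of all features met this and 1.41% met it as lower. They were Ces1d and 2 of the shared Cyp2b probe sets. No member met it at Wistar day 14 against controls (0.367% of all features higher and 0.157% lower). From day 3 to day 14 in Wistar 3 members were lower (0.786% of all, beside 0.262% higher): Cyp2b2, 1 shared Cyp2b probe set and Aldh6a1. In Kyoto 2 shared Cyp2b probe sets were higher at day 3 than at day 1 (0.733% of all, beside 0.786% lower).

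At Kyoto day 14 against day 1 6 members met the 2-fold criterion as higher (2.62% of all, beside 1.31% lower): Cyp2b2, 2 shared Cyp2b probe sets, Cyp3a9, the shared Cyp3a probe set and the shared Ces2 probe set. Cyp3a9 alone met it from day 3 to day 14 in Kyoto (1.36% of all, beside 0.943% lower). Single Kyoto day 1 arrays bear on these counts. At day 14 against day 1 fewer members met the criterion without replicate 1, and more without replicate 2. Either fit leaves 1 array at day 1, and the share of all features was not counted, so nothing about the members is read from it. The heat map of centred signals shows Kyoto day 1 replicate 1 and the Wistar control 2 array next to the rest of their groups.

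**Figure D1:**
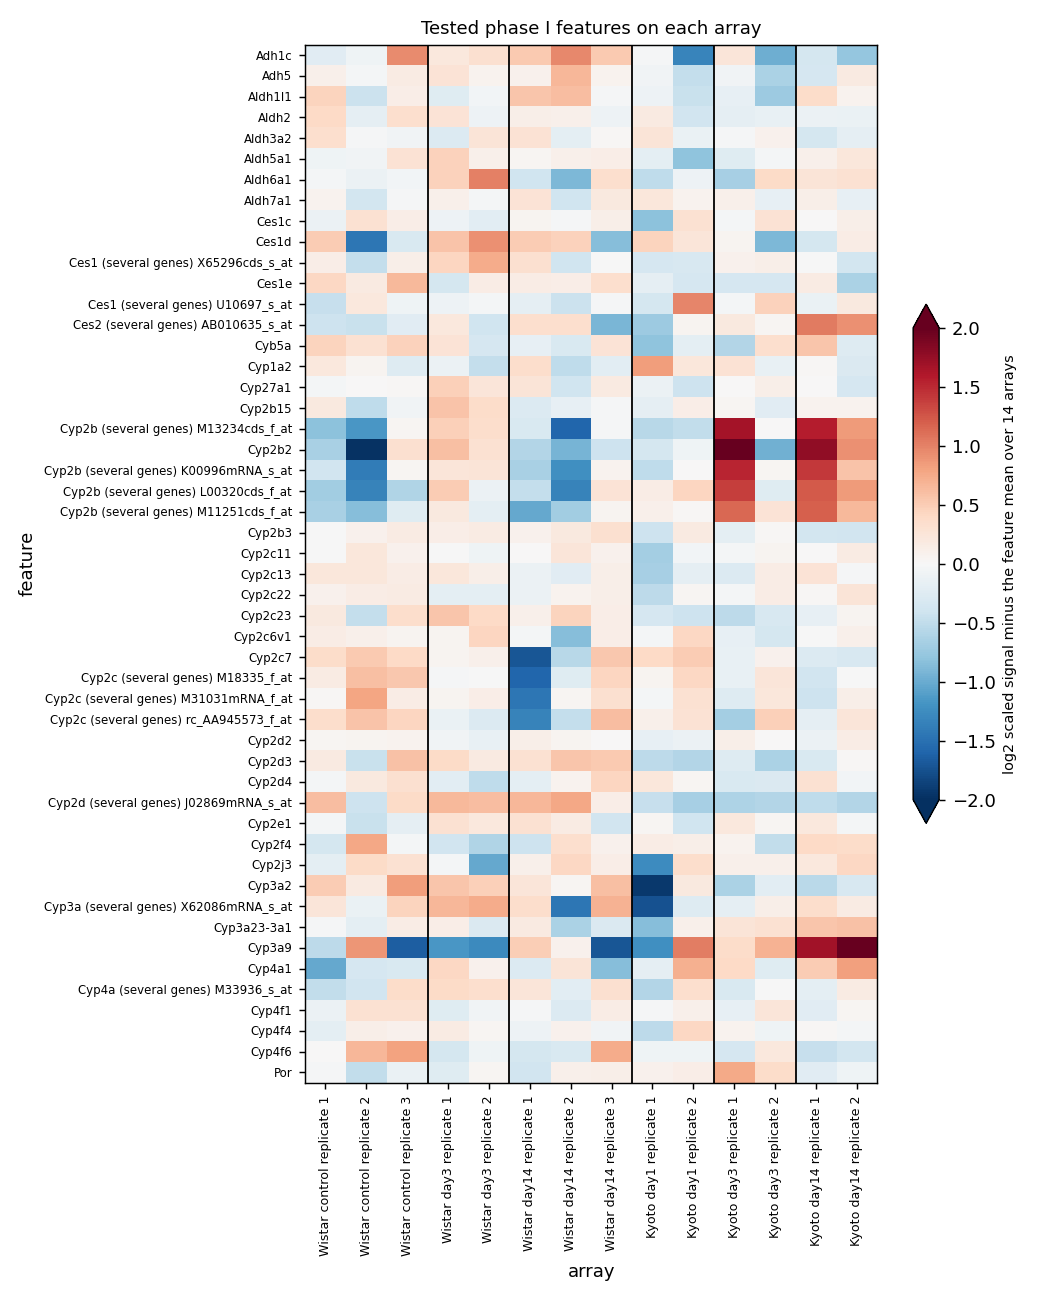
Each row is 1 of the 50 tested phase I features and each column 1 of the 14 arrays, with colour for the log2 scaled signal minus the feature's mean over the 14 arrays (colours end at 2 either way). The shared Cyp2d probe set is low on all 6 Kyoto arrays and on Wistar control 2, the 5 features that hold Cyp2b1 or Cyp2b2 are high on Kyoto day 3 replicate 1 and the Kyoto day 14 arrays, and the Cyp2c7 features are low on Wistar day 14 replicate 1.

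**Figure D2:**
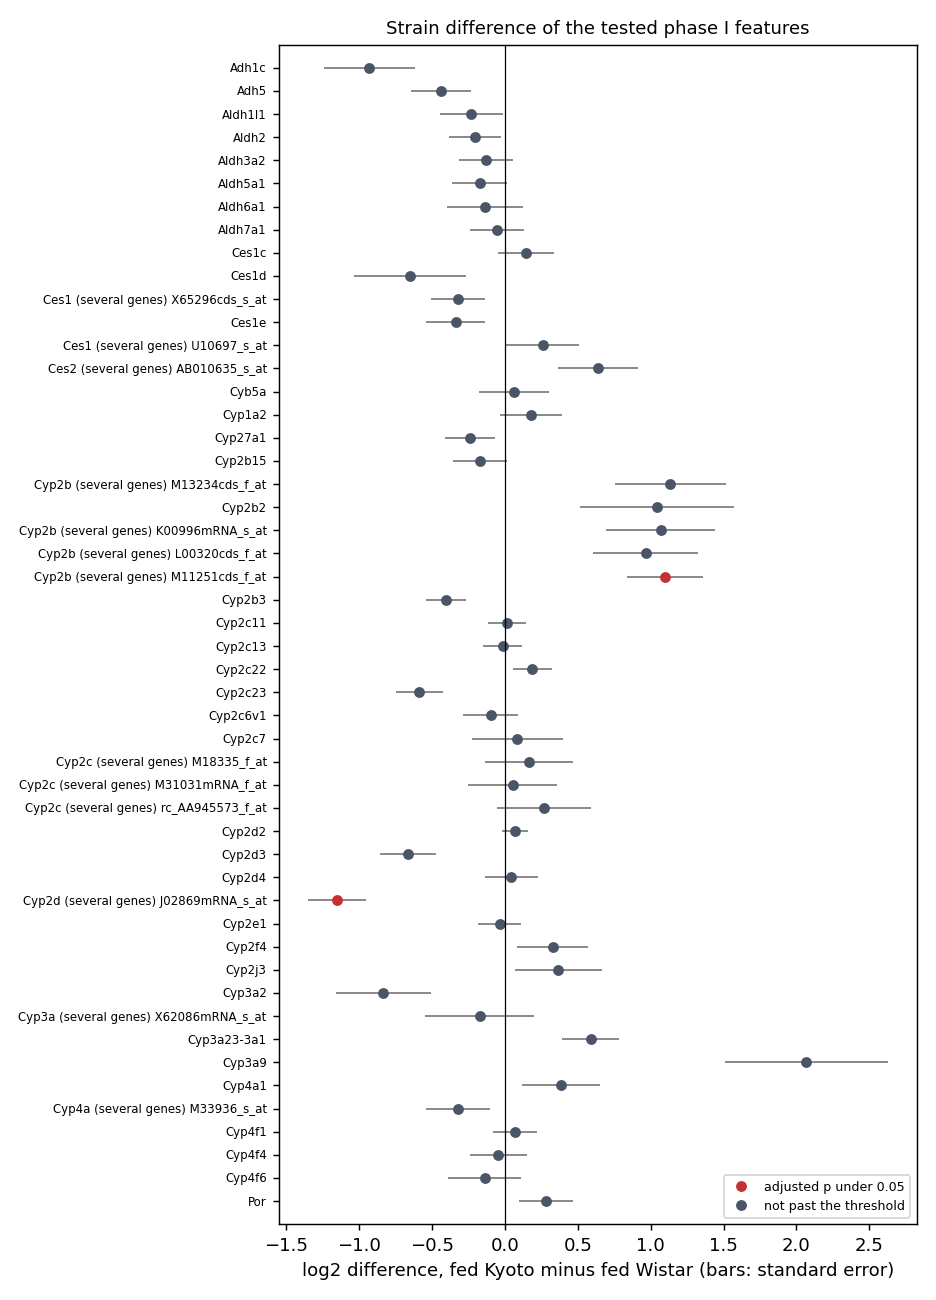
Points are the log2 difference between fed Kyoto and fed Wistar livers (averaged over days 3 and 14) for the 50 tested features, and bars are the standard error. The 2 features past the threshold are the shared Cyp2d probe set at -1.15 and 1 shared Cyp2b probe set at 1.10, while Cyp3a9 lies farthest to the right at 2.07 with a wide bar.

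The Cyp2d subfamily, which oxidises many basic drugs, gave the clearest strain difference among the members, and it did so unevenly. A probe set annotated to Cyp2d5 and Cyp2d1 together (J02869mRNA_s_at), whose signal cannot be assigned to either gene, was 12.29 and 12.32 at Kyoto day 3 and 12.40 and 12.32 at Kyoto day 14. In Wistar it was 13.55 and 13.52 at day 3 and 13.57, 13.68 and 13.05 at day 14. All fed Kyoto values lay below all fed Wistar values. The shared Cyp2d probe set was lower in Kyoto by 2.22-fold (log2 difference -1.15 ± 0.20 SE, adjusted p = 0.00819). Kyoto day 1 was as low, at 12.45 and 12.24.

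The Wistar controls gave 13.53, 12.48 and 13.29 for the shared Cyp2d probe set. The second of them, the array labelled Wistar control 2, lay near the Kyoto values and below the other controls. The strain difference was called with any 1 array left out (14 of 14 fits, adjusted p from 4.70e-04 to 0.0452). It was -1.23 at day 3 alone (adjusted p = 0.0844) and -1.07 at day 14 alone (adjusted p = 0.110), each past 2-fold without overlap. On the arrays of lot batch 1 it was -1.22 (adjusted p = 0.0419). With all features tested and no filter on low signals its adjusted p was 0.0719. Over all 16 other settings the adjusted p ran from 0.00125 to 0.110.

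Cyp2d3 ran the same way with a smaller difference that missed the threshold. Its signals were 12.15 and 11.78 at Kyoto day 3 and 12.10 and 12.43 at Kyoto day 14, against 12.80 and 12.59 at Wistar day 3 and 12.72, 12.96 and 12.93 at Wistar day 14. The fed groups did not overlap. The difference was -0.66 ± 0.19 (1.58-fold lower in Kyoto, adjusted p = 0.0783). Wistar control 2 was again low, at 11.97 beside 12.59 and 13.00, and without that array the adjusted p was 0.0270 (0.0270 to 0.322 over the 14 fits that left out 1 array).

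Cyp2d2 stayed between 14.02 and 14.33 on all arrays, with a strain difference of 0.07 ± 0.09 (adjusted p = 0.788) and a strain by time difference of -0.20 (adjusted p = 0.923). Cyp2d4 ranged from 9.36 to 10.30 and differed between the strains by 0.04 ± 0.18 (adjusted p = 0.941). Over time none of the 4 Cyp2d features was called. Cyp2d4 had differences at Wistar day 3 against controls (-0.52, adjusted p = 0.489), Wistar day 14 against day 3 (0.46, adjusted p = 0.994) and Kyoto day 3 against day 1 (-0.43, adjusted p = 0.831). At Wistar day 14 against controls Cyp2d3 differed by 0.35 and the shared Cyp2d probe set by 0.33 (adjusted p = 0.992 for both). Without Wistar control 2 these values were 0.07 and 0.02.

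**Figure D3:**
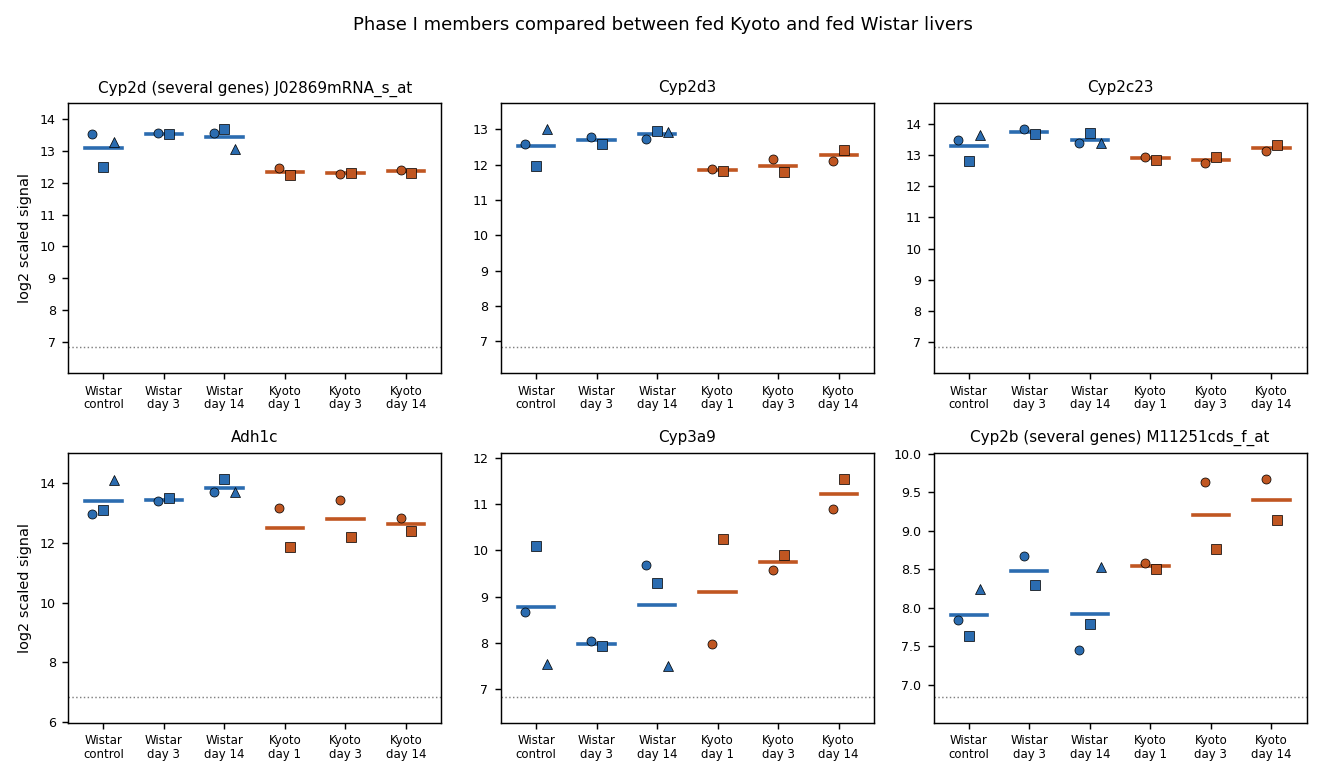
Log2 scaled signal on each array in the 6 groups (blue Wistar, orange Kyoto; circle, square and triangle for replicates 1, 2 and 3; lines are group means, the dotted line is the floor at 6.85). The shared Cyp2d probe set lies between 12.24 and 12.45 on the Kyoto arrays and from 13.05 up on all Wistar arrays but control 2, which is at 12.48, while Cyp3a9 spreads widely within groups.

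The Cyp2b subfamily, the textbook targets of phenobarbital and of the sensor CAR, had higher values in fed Kyoto livers in those probe sets that hold Cyp2b1, Cyp2b2 or both. A probe set annotated to Cyp2b2 and Cyp2b1 together (M11251cds_f_at) was the only one called. It was 9.64 and 8.76 at Kyoto day 3 and 9.68 and 9.14 at Kyoto day 14. In Wistar it was 8.68 and 8.29 at day 3 and 7.46, 7.79 and 8.54 at day 14. The lowest fed Kyoto array lay just above the highest fed Wistar array, and the difference was 2.14-fold (1.10 ± 0.26, adjusted p = 0.0342).

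That call depended on single arrays. It was kept in 7 of the 14 fits that left out 1 array (adjusted p from 0.0180 to 0.164), and the difference without Kyoto day 3 replicate 1 was 0.88. In arrays of lot batch 1 only the difference was 1.16 (adjusted p = 0.0884), and with no filter on low signals the adjusted p was 0.127. It was 0.72 at day 3 alone (adjusted p = 0.456) and 1.48 at day 14 alone (adjusted p = 0.0948), and over all 15 other settings that tested it the adjusted p ran from 0.0103 to 0.456. Wistar controls had 7.84, 7.64 and 8.25 and Kyoto day 1 had 8.58 and 8.50, so that both Kyoto day 1 arrays were above all 3 controls.

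The other probe sets of these genes had differences in the same direction without passing the threshold. The probe set annotated to Cyp2b15 and Cyp2b2 (M13234cds_f_at) differed by 1.14 ± 0.38 (adjusted p = 0.141), and the other two shared by Cyp2b2 and Cyp2b1 by 1.07 (K00996mRNA_s_at, adjusted p = 0.155) and 0.97 (L00320cds_f_at, adjusted p = 0.197). L00320cds_f_at was at the floor on 1 control and 1 Wistar day 14 array, so its Wistar level is partly a bound. Cyp2b2, by the brighter of the 2 probe sets of that gene alone, differed by 1.04 ± 0.53 (adjusted p = 0.405). The other of these 2 gave 0.66. These probe sets read overlapping transcripts and are not separate evidence.

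By the brighter probe set, Cyp2b2 spread widely between arrays. It was 12.30 and 9.28 at Kyoto day 3, 12.01 and 11.16 at Kyoto day 14, and 9.89 and 10.16 at Kyoto day 1. Wistar had 9.59, 8.26 and 10.56 in controls, 10.85 and 10.54 at day 3 and 9.65, 9.30 and 9.83 at day 14. The 2 Kyoto day 3 arrays were thus the highest of the 14 arrays and one near the low end. The other Cyp2b2 probe set had 11.34 and 9.99 on these 2 arrays, the lower of them within its Wistar range.

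Over time the same probe sets were highest at Wistar day 3 and lower again at day 14. M13234cds_f_at was 9.50, 9.16 and 10.36 in controls, 10.80 and 10.67 at day 3, and 10.01, 8.73 and 10.29 at day 14. Its day 3 values lay above all others of the strain, with a difference of 1.06 from controls (adjusted p = 0.501) and of -1.05 from day 3 to day 14 (adjusted p = 0.994). L00320cds_f_at differed by 1.08 at day 3 from controls (adjusted p = 0.459), and Cyp2b2 by -1.10 from day 3 to day 14 (adjusted p = 0.994). All 7 Cyp2b features were higher at Wistar day 3 than in controls, by a median of 0.83, and 6 of 7 were lower at day 14 than at day 3, by a median of -0.71. None of these differences was called.

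In Kyoto the order of the means was different. At day 14 6 of 7 Cyp2b features were higher than at day 3 (median 0.21) and than at day 1 (median 0.86). Kyoto day 3 replicate 1 still lay above both day 14 arrays in several of them, M13234cds_f_at included. M13234cds_f_at was 9.76 and 9.82 at day 1, 11.98 and 10.32 at day 3 and 11.88 and 11.17 at day 14. It differed by 1.36 from day 1 to day 3 (adjusted p = 0.782) and by 1.73 from day 1 to day 14 (adjusted p = 0.293). K00996mRNA_s_at differed by 1.04 from day 1 to day 3 (adjusted p = 0.782) and by 1.24 from day 1 to day 14 (adjusted p = 0.456). The strain by time difference had a median of 1.05 over the 7 features, and none was called.

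Cyp2b3, a constitutive member not known for induction by phenobarbital, ran the other way. It was 12.66 and 12.89 at Kyoto day 3 and 12.49 and 12.48 at Kyoto day 14, and between 12.95 and 13.18 on the 5 fed Wistar arrays. The groups did not overlap, and the difference was -0.40 ± 0.14 (adjusted p = 0.144). A second Cyp2b3 probe set differed by -0.23, and its fed groups overlapped. In Kyoto, Cyp2b3 differed by -0.26 from day 1 to day 14 (adjusted p = 0.698) and by -0.29 from day 3 to day 14 (adjusted p = 0.980). Its strain by time difference was -0.34 (adjusted p = 0.923). The second probe set did not repeat this. Its means were 10.95, 11.11 and 11.05 at Kyoto days 1, 3 and 14. At Wistar days 3 and 14 they were 11.66 and 10.95, a larger fall than in Kyoto.

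Cyp2b15 was 9.12 and 8.91 at Wistar day 3, above 8.74, 8.03 and 8.48 in controls and 8.26, 8.37 and 8.52 at day 14. The differences were 0.60 from controls (adjusted p = 0.412) and -0.63 to day 14 (adjusted p = 0.994). In Kyoto it ranged from 8.32 to 8.67 over the 3 days.

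**Figure D4:**
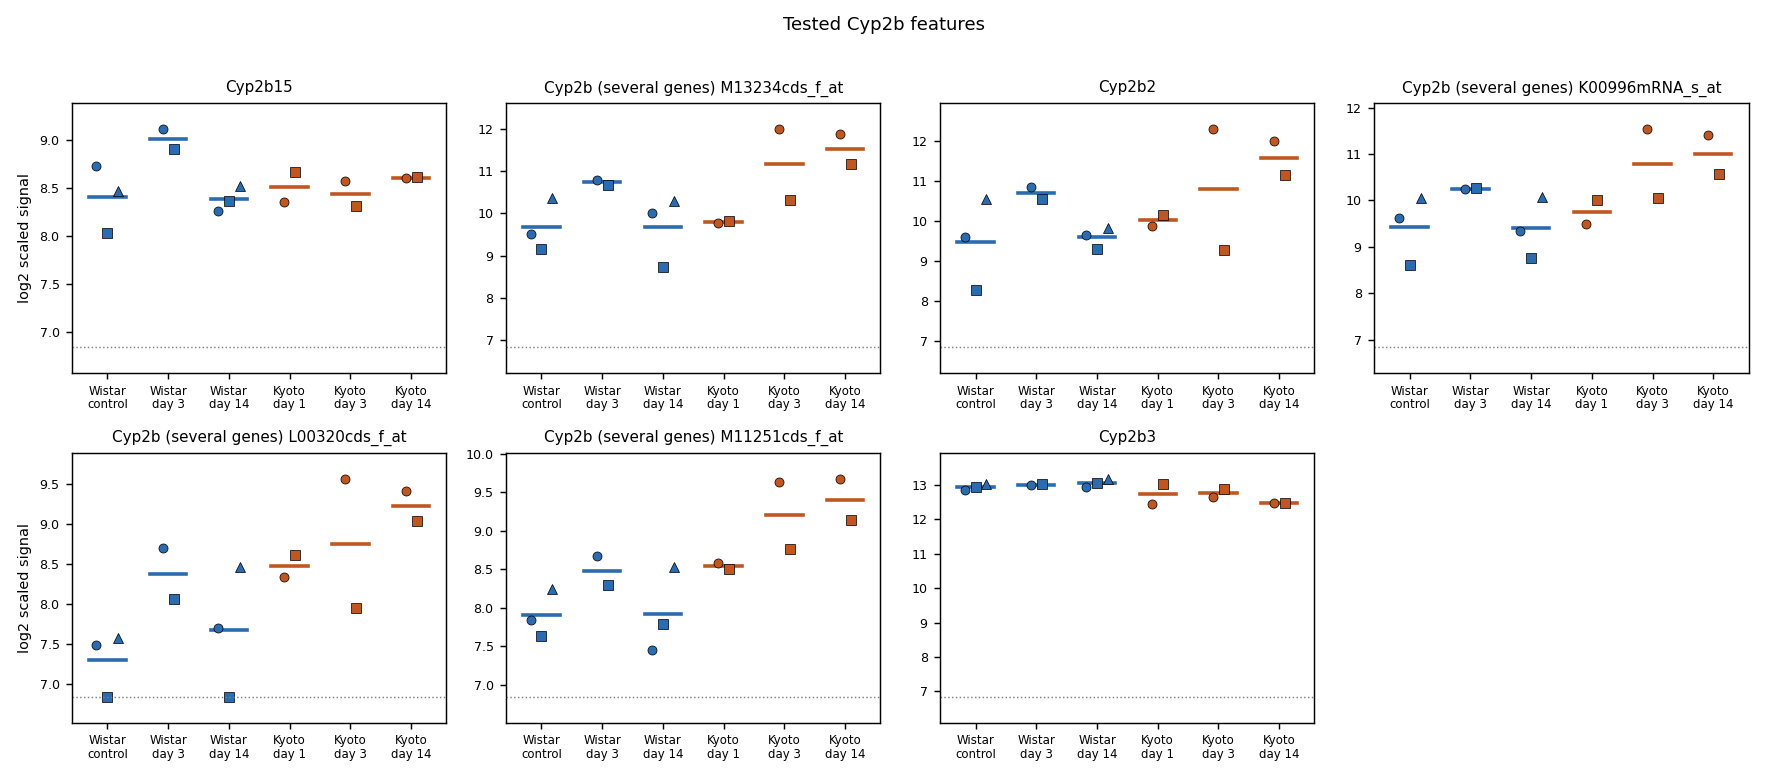
Log2 scaled signal of the 7 tested Cyp2b features on each array in the 6 groups (blue Wistar, orange Kyoto; circle, square and triangle for replicates 1, 2 and 3; lines are group means, the dotted line is the floor at 6.85). The 5 features that hold Cyp2b1 or Cyp2b2 are highest on Kyoto day 3 replicate 1 and the Kyoto day 14 arrays, whereas Cyp2b3 is lowest at Kyoto day 14 apart from 1 day 1 array, and Cyp2b15 is highest at Wistar day 3.

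The Cyp3a subfamily, which oxidises steroids and a large share of drugs under control of the sensor PXR, had values that differed in direction between the strains. Cyp3a9 was 9.58 and 9.91 at Kyoto day 3 and 10.89 and 11.54 at Kyoto day 14, against 8.05 and 7.93 at Wistar day 3 and 9.70, 9.30 and 7.50 at Wistar day 14. The fed groups overlapped by 1 Wistar day 14 array. The difference was 4.19-fold, the largest of the 50 members, but its error was also wide (2.07 ± 0.56, adjusted p = 0.0609). In 5 of the 14 fits that left out 1 array it was called (adjusted p from 0.0305 to 0.213), and without the 3 arrays with blank entries it was 1.73 (adjusted p = 0.0118; 0.00678 to 0.403 over 16 settings).

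The spread of Cyp3a9 within groups was large. Controls had 8.68, 10.10 and 7.56, with the highest value on Wistar control 2, and Kyoto day 1 had 7.99 and 10.24. From day 3 to day 14 in Kyoto the difference was 1.47 ± 0.82 (adjusted p = 0.971), and from day 1 to day 14 it was 2.10 (adjusted p = 0.409).

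Cyp3a23-3a1, the PXR-inducible main form, was 14.12 and 14.17 at Kyoto day 3 and 14.41 and 14.44 at Kyoto day 14. Fed Wistar arrays ranged from 13.23 to 14.04, below all of these. The strain difference was 0.59 ± 0.20 (1.502-fold, adjusted p = 0.134). Of its 4 probe sets above the filter 3 were higher in Kyoto, with differences from -0.03 to 0.59. Within Kyoto it differed by 0.65 from day 1 to day 3 (adjusted p = 0.782) and by 0.93 from day 1 to day 14 (adjusted p = 0.252). The day 1 values were 13.02 and 13.97. Without the lower array these differences were 0.17 and 0.46, and without the higher one 1.13 (adjusted p = 0.0474, highest 0.924 over the fits that left out 1 array) and 1.42 (adjusted p = 0.00942, highest 0.791).

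Cyp3a2, a form known to predominate in male rats, missed the threshold. It was 11.57 and 12.0003 at Kyoto day 3 and 11.67 and 11.88 at Kyoto day 14, and from 12.24 to 12.82 on the fed Wistar arrays. The groups did not overlap, with a difference of -0.83 ± 0.33 (1.78-fold, adjusted p = 0.223). Kyoto day 1 had 10.27 and 12.41. The probe set annotated to Cyp3a2 and Cyp3a23-3a1 together was 11.56 and 13.05 at Kyoto day 1 and 13.66 and 13.47 at Kyoto day 14, a difference of 1.26 (adjusted p = 0.456). All 4 Cyp3a features were higher at Kyoto day 14 than at day 1, by a median of 1.10, and Kyoto day 1 replicate 1 was the lowest of the 14 arrays for 3 of them and the lowest Kyoto array for Cyp3a9. In the same comparison 0 of 7 tested stellate cell and fibroblast markers were higher (median -0.92, beside -0.00 over all features), with none called. The summed signal of all 8 such markers on the array was 13.51 to 13.69 at Kyoto day 1 and 13.17 to 13.20 at day 14 (log2). Of 4 tested genes of pericentral hepatocytes 1 was higher (median -0.07). Glul, a glutamine synthetase, differed by -1.78 (adjusted p = 0.152), whereas Gstm1 of the same list differed by -0.12. Of 16 tested periportal genes 11 were higher (median 0.33), and 0 genes of either list were called. The part of these shifts in the Cyp3a, Cyp2b and Ces2 values at Kyoto day 14 was not tested.

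The Cyp2c subfamily holds the growth hormone-dependent forms of rat liver. Cyp2c7 gave the largest difference of any member at Wistar day 14 against controls, and it rested on single arrays. Controls had 13.41, 13.56 and 13.43 and day 3 had 13.09 and 13.14, whereas day 14 had 11.32, 12.48 and 13.57. Replicate 3 of day 14, an array with blank entries and no lot given, was at the control level and the others were below. Whether lot or blank entries have a part in this was not tested. The difference was -1.01 ± 0.37 (adjusted p = 0.895), and -1.54 on the arrays of lot batch 1. Without replicate 1 it was -0.44, and without replicate 3 it was -1.55 (adjusted p = 0.0421; highest 0.999 over the fits that left out 1 array).

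The 3 further probe sets annotated to Cyp2c7 and Cyp2c7l1 together followed the same arrays. M18335_f_at was 11.47, 12.82 and 13.48 at Wistar day 14, with a difference from controls of -0.90 (adjusted p = 0.895). The others differed by -0.85 (rc_AA945573_f_at, adjusted p = 0.895) and -0.68 (M31031mRNA_f_at, adjusted p = 0.990). In Kyoto, Cyp2c7 was 13.43 and 13.54 at day 1, 12.88 and 13.13 at day 3 and 12.76 and 12.72 at day 14. Those day groups did not overlap, and the difference from day 1 to day 14 was -0.75 ± 0.46 (adjusted p = 0.602).

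**Figure D5:**
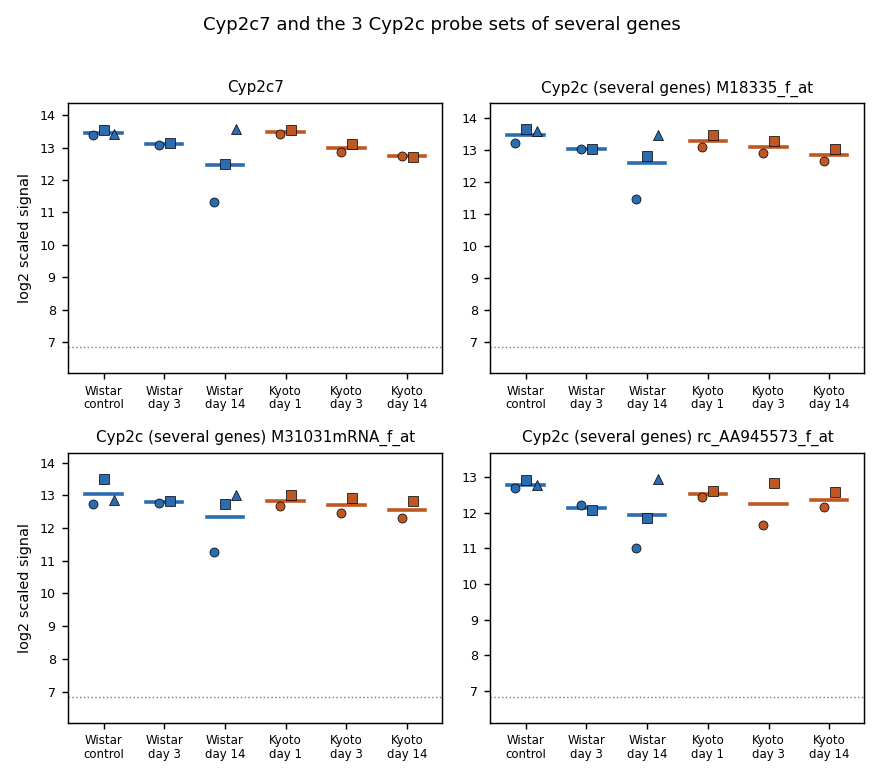
Log2 scaled signal of Cyp2c7 and of 3 probe sets shared by Cyp2c7 and Cyp2c7l1 on each array in the 6 groups (blue Wistar, orange Kyoto; circle, square and triangle for replicates 1, 2 and 3; lines are group means, the dotted line is the floor at 6.85). In all 4 panels Wistar day 14 replicate 1 is the lowest array, between 11.002 and 11.47, and replicate 3 is at the control level.

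Cyp2c23, an epoxygenase of arachidonic acid, was 12.76 and 12.95 at Kyoto day 3 and 13.12 and 13.32 at Kyoto day 14, and from 13.38 to 13.83 on the fed Wistar arrays. The groups did not overlap, though the gap was narrow at day 14. The difference was -0.59 ± 0.16 (1.503-fold lower in Kyoto, adjusted p = 0.0630), and -0.48 in a second probe set, whose fed groups overlapped. In the brighter probe set it was -0.90 at day 3 alone (adjusted p = 0.110) and -0.28 at day 14 alone (adjusted p = 0.817). Wistar control 2, at 12.80 beside 13.47 and 13.63, was again at the Kyoto level. Without that array the adjusted p was 0.0160 (0.0160 to 0.259 over the fits that left out 1 array).

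The array labelled Wistar control 2 was not Kyoto-like in every member. On a scale with the fed Wistar mean at 0 and the fed Kyoto mean at 1, it lay at 0.868 for the shared Cyp2d probe set, 1.22 for Cyp2d3, 1.39 for Cyp2c23, 0.815 for Cyp3a9 and 0.592 for Adh1c. It lay on the far side of the fed Wistar mean for the shared Cyp2b probe sets M11251cds_f_at (-0.516) and M13234cds_f_at (-0.924) and for Cyp3a23-3a1 (-0.0439). Some of this was shared by Wistar control 1, which lay at 0.746 for Adh1c, -0.336 for M11251cds_f_at and -0.619 for M13234cds_f_at. The median over these members was 0.188, 0.703 and 0.0149 for controls 1, 2 and 3. Whether the label of Wistar control 2 is right was not tested.

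Cyp2c11, the main male form, was between 13.54 and 13.87 on 13 arrays and 12.95 on Kyoto day 1 replicate 1. Cyp2c13, also known as male-specific, ranged from 13.46 to 14.01 apart from 13.07 on that array. Their differences in Kyoto rested on it: 0.37 for Cyp2c11 from day 1 to day 3 (adjusted p = 0.782; 0.06 without the array and 0.68 without the other day 1 array, adjusted p = 0.0497, highest 0.992 over the fits that left out 1 array) and 0.54 for Cyp2c13 from day 1 to day 14 (adjusted p = 0.397; 0.31 without it and 0.79 without the other, adjusted p = 0.0383, highest 0.918). Neither differed between the strains beyond its error, with 0.01 ± 0.13 for Cyp2c11.

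Cyp2c22 ranged from 12.63 to 13.41, lowest on the same Kyoto day 1 array. Cyp2c6v1 ranged from 11.98 to 13.27. It differed by -0.45 from day 1 to day 3 in Kyoto (adjusted p = 0.831), and its strain by time difference was 0.80 (adjusted p = 0.857). A second Cyp2c6v1 probe set showed neither difference. Its means were 12.58, 12.59 and 12.53 at Kyoto days 1, 3 and 14, and 12.81 and 12.69 at Wistar days 3 and 14. Of the 9 Cyp2c features 7 were lower at Wistar day 14 than in controls, by a median of -0.35, of which 4 were the Cyp2c7 features above.

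Among the remaining P450s of drug metabolism, Cyp1a2, the caffeine-oxidising target of the aryl hydrocarbon receptor, ranged from 11.35 to 12.68 and was highest at Kyoto day 1 (12.68 and 12.08). It differed by -0.46 from day 1 to day 3 (adjusted p = 0.866) and by -0.66 from day 1 to day 14 (adjusted p = 0.495), and by 0.18 between the strains (adjusted p = 0.753). Cyp2e1, which oxidises ethanol and ketones, was 14.39, 13.98 and 14.24 in controls and 14.72 and 14.64 at Wistar day 3. The day 3 values lay above all controls, with a difference of 0.48 ± 0.20 (adjusted p = 0.412). At day 14, with 14.72, 14.59 and 14.05, it was 0.25 (adjusted p = 0.992). Its strain difference was -0.04 ± 0.15 (adjusted p = 0.939).

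Cyp2f4 was 8.91, 10.04 and 9.23 in controls and 8.88 and 8.66 at Wistar day 3, a difference of -0.62 (adjusted p = 0.537) that was -0.30 without Wistar control 2. It differed by 0.50 from day 3 to day 14 in Wistar (adjusted p = 0.994) and by 0.60 in Kyoto (adjusted p = 0.971). Cyp2j3, an epoxygenase, was 9.91 and 8.93 at Wistar day 3 and 10.05, 10.36 and 10.08 at day 14. That difference of 0.74 (adjusted p = 0.994) was 0.25 without the lower day 3 array.

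The fatty acid hydroxylases of the Cyp4 family, targets of PPAR alpha, showed no called difference. Cyp4a1 was 10.58, 11.27 and 11.30 in controls, 12.02 and 11.69 at Wistar day 3 and 11.33, 11.86 and 10.76 at day 14. The day 3 values lay above the controls, by 0.80 on average. In Kyoto it was 11.43 and 12.31 at day 1, 11.99 and 11.36 at day 3 and 12.11 and 12.42 at day 14. The strain by time difference was 1.13 ± 0.53 (adjusted p = 0.857), and the strain difference 0.38 ± 0.27 (adjusted p = 0.581), with all 3 Cyp4a1 probe sets between 0.37 and 0.38.

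The probe set annotated to Cyp4a3 and Cyp4a2 together ranged from 12.39 to 13.35. Its strain difference was -0.32 ± 0.22 (adjusted p = 0.567). Cyp4a3 alone was above the floor on 3 arrays, Cyp4a8 on 3 and Cyp4b1 on 1, and none of them was tested. Cyp4f6 was 11.09, 11.74 and 11.87 in controls and 10.71 and 10.98 at Wistar day 3, a difference of -0.72 ± 0.34 (adjusted p = 0.485). Its strain by time difference was -0.60 (adjusted p = 0.923). Cyp4f1 ranged from 12.46 to 13.04 and Cyp4f4 from 9.66 to 10.59.

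Cyp27a1, the mitochondrial sterol hydroxylase of bile acid synthesis, was 11.65, 11.70 and 11.71 in controls, 12.17 and 11.93 at Wistar day 3, and between 11.27 and 11.80 in Kyoto. The strain difference was -0.24 ± 0.17 (adjusted p = 0.595), and a second probe set gave -0.28. Cyp7b1, an oxysterol hydroxylase, was under the filter and above the floor on 2 arrays, both of Wistar day 14.

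Carboxylesterases varied between arrays. Ces1d, which hydrolyses triacylglycerol and drug esters, was 11.10, 9.13 and 10.28 in controls and 11.15 and 11.49 at Wistar day 3. The day 3 arrays were above all controls, with a difference of 1.15 (adjusted p = 0.459). The lowest value was again on Wistar control 2, and without that array no member was past 2-fold without overlap at Wistar day 3. Day 14 had 11.10, 11.05 and 9.73. In Kyoto, Ces1d was 11.02 and 10.83 at day 1 and 10.64 and 9.68 at day 3, a difference of -0.76 (adjusted p = 0.868).

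The probe set annotated to Ces1dl1 and Ces1d together was 12.49, 11.89 and 12.47 in controls, 12.78 and 13.11 at Wistar day 3 and 12.68, 11.96 and 12.35 at day 14. It had the smallest p of any member at Wistar day 3 against controls (0.66 ± 0.25, adjusted p = 0.355), and differed by -0.62 to day 14 (adjusted p = 0.994). In Kyoto it was 12.02 and 12.04 at day 1 and 12.44 and 12.47 at day 3, higher at day 3 where the Ces1d probe set was lower. From day 3 to day 14 in Kyoto it differed by -0.28 (adjusted p = 0.980). The Ces1e signal was 8.80, 8.58 and 9.05 in controls and 8.04 and 8.53 at Wistar day 3 (-0.52, adjusted p = 0.536). Ces1c ranged from 12.28 to 13.41 and the probe set shared by Ces1f and Cesl1 from 10.68 to 12.11.

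The probe set annotated to Ces2 and Ces2c was 7.08 and 7.87 at Kyoto day 1, 8.0015 and 7.85 at day 3 and 8.85 and 8.72 at day 14. Its day 14 values lay above those of all other arrays. It differed by 1.31 ± 0.41 from day 1 (adjusted p = 0.252) and by 0.86 from day 3 (adjusted p = 0.971). Wistar had 7.39, 7.37 and 7.58 in controls and 8.15, 8.15 and 6.90 at day 14. The strain difference was 0.64 ± 0.28 (adjusted p = 0.290).

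Both tested alcohol dehydrogenases had lower means in fed Kyoto livers, and neither was called. Adh1c, the main ethanol-oxidising form, was 13.43 and 12.20 at Kyoto day 3 and 12.83 and 12.41 at Kyoto day 14, against 13.39 and 13.49 at Wistar day 3 and 13.70, 14.14 and 13.70 at Wistar day 14. One Kyoto day 3 array overlapped the Wistar range. The difference was -0.93 ± 0.31 (1.91-fold, adjusted p = 0.136). A second Adh1c probe set had no overlap and a difference of -1.16 ± 0.28, which was called when all 2466 probe sets above the filter were tested singly (adjusted p = 0.0416). That fit called 3 of 75 member probe sets between the strains, 1 higher and 2 lower, beside 71 of all 2466 probe sets.

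Adh4, a retinol and ethanol dehydrogenase, was under the filter and untested, but its pattern divided the strains. It was at the floor on all 6 Kyoto arrays. In Wistar it was 7.83, 6.85 and 8.25 in controls, 8.07 and 7.85 at day 3 and 7.18, 7.36 and 8.002 at day 14. The only Wistar array at the floor was control 2. Adh7 was likewise above the floor on 7 of 8 Wistar arrays and on 1 of 6 Kyoto arrays. Adh5, the glutathione-dependent formaldehyde dehydrogenase, ranged from 9.54 to 10.83, with a strain difference of -0.44 ± 0.20 (adjusted p = 0.345).

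All 6 tested aldehyde dehydrogenases had lower means in fed Kyoto livers, by -0.06 to -0.23, and none was called. Aldh6a1, which acts in valine breakdown, was 11.40, 11.33 and 11.40 in controls, 11.92 and 12.45 at Wistar day 3 and 11.05, 10.55 and 11.78 at day 14. The day 3 values lay above all others of the strain. The differences were 0.81 ± 0.35 from controls (adjusted p = 0.443) and -1.06 ± 0.35 from day 3 to day 14 (adjusted p = 0.994). In Kyoto, with 10.79 and 11.83 at day 3 and 11.71 and 11.75 at day 14, the direction was opposite on average. The strain by time difference was 1.48 ± 0.52 (adjusted p = 0.857).

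Aldh1l1, a folate enzyme, differed by 0.33 at Wistar day 14 from controls (adjusted p = 0.992), by 0.53 from day 3 to day 14 in Wistar (adjusted p = 0.994) and by 0.67 in Kyoto (adjusted p = 0.971). Aldh3a2, which oxidises fatty aldehydes, differed by -0.32 from day 1 to day 14 in Kyoto (adjusted p = 0.713) and by -0.30 from day 3 to day 14 (adjusted p = 0.980). Aldh2, the mitochondrial acetaldehyde dehydrogenase, ranged from 11.35 to 12.13. Aldh3a1 was at the floor on all 14 arrays.

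The electron donors gave no called difference. Por was 10.64 and 10.24 at Kyoto day 3, above 9.96 and 10.01 at day 1 and 9.65 and 9.78 at day 14. The groups did not overlap, and the difference from day 3 to day 14 was -0.72 ± 0.27 (adjusted p = 0.971). The strain by time difference of Por was -0.77 (adjusted p = 0.857). Its 3 probe sets disagreed on the strain difference, from -0.15 to 0.29. Cyb5a ranged from 11.44 to 12.80, with a strain difference of 0.06 ± 0.24 (adjusted p = 0.937).

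Where a gene had several probe sets above the filter they mostly pointed one way between the strains: 13 of 18 such genes had 1 direction. The exceptions were Ces1c, Cyp1a2, Cyp2c11, Cyp3a23-3a1 and Por.

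Genes that work beside these enzymes were set in lists. Of 13 tested genes of microsomal electron transfer and heme supply 7 were higher in fed Kyoto and 0 were called. Blvra, a biliverdin reductase, came nearest, with -0.69 ± 0.20 (adjusted p = 0.0783). Of 12 tested xenobiotic sensors and liver transcription factors 5 were higher and 0 were called, with Cebpa at -0.58 (adjusted p = 0.240). The median over this list was -0.06 beside 0.04 over all features.

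In these lists single genes were called, beside 1.26% of all features called higher and 1.99% lower, and nothing is read from counts this small. Of 15 tested phase I enzymes outside the rule 1 was called. Ephx2, the soluble epoxide hydrolase, was lower in fed Kyoto by -1.56 ± 0.32 (adjusted p = 0.0170). Of 4 tested pericentral genes 1 was called lower, Oat, the ornithine aminotransferase (-0.83 ± 0.21, adjusted p = 0.0418). Of 16 periportal genes 1 was called higher, Igfals, a subunit of the plasma complex that carries IGF (0.90 ± 0.20, adjusted p = 0.0248). Of 17 acute phase genes Orm1 was called higher (0.77 ± 0.18, adjusted p = 0.0295). Outside the strain comparison 0 genes of these lists were called.

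Markers of other cells were not called between the strains, but their summed levels were not identical. All 3 tested macrophage markers were higher in fed Kyoto, by a median of 0.57, and their summed signal was 11.44 to 11.85 at Kyoto days 3 and 14 and 11.0021 to 11.55 in fed Wistar, beside 11.21 to 11.79 in the controls (log2). Both tested endothelial markers were higher, by a median of 0.60. Of 7 tested stellate cell and fibroblast markers 5 were higher, by a median of 0.07. The 8 hepatocyte markers had a median difference of 0.05. In whole tissue, fewer cells of a type and less RNA per cell cannot be told apart, and the part of these shifts in the Cyp2d and Cyp2b differences was not tested. The log2 ratio of the 3' to the 5' probe set of Gapdh, a sign of RNA quality, was 0.84 to 1.76 in the Wistar controls, 0.22 to 0.43 at Wistar day 3, 0.30 to 1.12 at Wistar day 14, 0.55 to 1.19 at Kyoto day 3 and 0.44 to 0.62 at Kyoto day 14. All 3 controls thus lay above both Wistar day 3 arrays, the groups behind the day 3 values of Ces1d, Cyp2b, Cyp2e1, Cyp4a1 and Aldh6a1. At day 3 both Kyoto arrays were above both Wistar arrays, and at day 14 the strains overlapped. Its part in any of these differences was not tested.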

How the data were processed

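Total RNA was labelled with biotin and hybridised to 1-colour Affymetrix rat arrays. The authors deposited 1 linear intensity value for each probe set and array, and the submitters' processing notes name MAS5. The version and scaling target of MAS5: not given in the sources used here. Depth does not apply to arrays, and their number limits the precision.

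Of 4502 probe sets, 375 were blank on some array and stayed out of the fit. Because 2% trimmed means differed by 37.2% between arrays (limit 5%), log2 signals were quantile normalized. These means were taken over the values present, and the highest (1094 and 1026) were on arrays with blank entries. The arrays without blank entries shared a deposited median of 233.2, with trimmed means from 797.1 (Kyoto day 1 replicate 2) to 990.6 (Wistar control 2). They were floored at the 25th percentile of all values, and probe sets with the same single symbol were represented by the brightest. The upper 60% of 3181 features (mean log2 signal from 7.55) were fitted with limma 3.58.1 in R 4.3.3, with 1 mean per group, an intensity trend and 8 residual degrees of freedom. The 8 comparisons were adjusted by Benjamini-Hochberg over 1909 features. On simulated data the fit was checked before use.

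Gene symbols come from the platform annotation, and all 55 member gene IDs matched RefSeq. Promoters matched 47 of these 55 genes. The members, lists and rules were chosen with earlier results of these data known. In each comparison the members past the threshold, and otherwise up to 4 on each side by smallest p, are named, together with a fixed list of well-known genes. Other scalings, floors, filters, batch blocks, array weights and leaving out each array were tried.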

Additional observations from a re-analysis of the deposited data

Results flagged for a closer look

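Cyp2b15 values at day 14 lay on opposite sides of those at day 3 in the strains: all 3 Wistar day 14 arrays were below both Wistar day 3 arrays, and both Kyoto day 14 arrays (8.61 and 8.62) were above both Kyoto day 3 arrays (8.57 and 8.32). The strain by time difference was 0.79 (limma, adjusted p = 0.857), so it did not pass the test. Members that were under the filter and entered no comparison had a signal on single arrays above the floor at which all controls lay. Cyp4a3 was 7.94 on Wistar day 14 replicate 3. Cyp7b1 was 8.41 on Wistar day 14 replicate 1 and 7.65 on replicate 2. No group held 4 arrays, so single arrays were not tested as outliers.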

How the results depend on the processing

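The 64 named differences kept their direction under all settings other than leaving out 1 array (905 values, of which 888 kept their side of the threshold, 7 lost and 10 gained it). Leaving out 1 array at a time turned 3 of 896 values: Cyp2b3 from day 1 to day 14 in Kyoto became 0.0386 without Kyoto day 1 replicate 2 (range from -0.549), and Aldh3a2 from day 3 to day 14 in Kyoto became positive (range from -0.524; 0.336 without Wistar day 14 replicate 2 and 0.339 without Wistar control replicate 1), where another probe set became the brighter one. No paired analysis was possible because replicate numbers were given in accession order and pair nothing.

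Counts under other settings are of members alone, without the share of all features beside them, so nothing about the members is read from them. Between the strains 2 members were called. This count was 0 with no filter, 1 with the upper 40% of features, 7 with the fit on the fed groups of both strains alone, 8 with array weights, and, in settings chosen after seeing the data, 1 on lot batch 1 arrays, 4 without the 3 arrays with blank entries, and 0 at day 3 or day 14 alone. It ran from 1 to 6 without 1 array. The count past 2-fold without overlap (2) was 1 with the upper 40%, 9 at day 14 alone, and 1 to 6 without 1 array. Within Kyoto the called count without 1 array ran from 0 to 9 at day 14 against day 1 and from 0 to 4 at day 3 against day 1, and the 2-fold count from 2 to 9 and from 1 to 7. Without the 3 arrays with blank entries the 2-fold counts were 2 and 1. At day 14 against day 3 the 2-fold count ran from 1 to 4.

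Within Wistar the 2-fold count at day 3 against controls (3) was 6 with every probe set, 1 with array weights, 7 on lot batch 1 arrays, 6 without the arrays with blank entries, and 0 to 6 without 1 array. At day 14 against controls (0) it was 3 on lot batch 1 arrays, 3 without the arrays with blank entries and 0 to 3 without 1 array, where the called count ran from 0 to 1. At day 14 against day 3 (3) it was 0 on signals as deposited, 0 with median centring, 0 with lot batch as a block, 9 on lot batch 1 arrays, 8 without the arrays with blank entries and 0 to 8 without 1 array. The cause of these shifts was not tested. Each group held 2 or 3 arrays, and signals at the floor give bounds only.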
